A study of Mus musculus with 12 samples.

Results

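Naive CD8 T cells of mice homozygous for the Ikaros-Zn4 mutation were compared after 24 h and after 12 h of stimulation, with 2 libraries at each time, 4 of the 12 libraries of the series. The comparison was chosen by these labels and covers every gene of the table, on the log2(RPKM + 1) scale. Both groups are Ikaros-Zn4-/- on a C57Bl/6 background, from spleens of 6-week-old mice labelled female. CD8+ cells that were CD62Lhi and CD44lo/- were enriched by negative selection, sorted, and plated on coated anti-CD3 and anti-CD28. Wild-type (WT) cells of the same age, background, sort and stimulation, also with 2 libraries at 24 h and 2 at 12 h, served to ask whether the mutant's change differs from that of normal cells, and unstimulated cells (0 h) of the mutant give a resting level. Rises and falls are from 12 h to 24 h, so a gene that rose may still be at or below its resting level. Whether the replicates came from different animals is not given in the labels, and every p-value therefore measures only the spread between these samples. RPKM is a read count scaled by the length of the gene and by the reads of the library. The model was fitted with limma to all 12 libraries, and a gene was called where its Benjamini-Hochberg adjusted p, over 12726 tested genes, was under 0.05.

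Ikaros, encoded by Ikzf1, is a zinc-finger DNA-binding protein of lymphocytes, and the Zn4 mutation removes the fourth finger of its DNA-binding domain. When a naive T cell is stimulated through its antigen receptor and CD28, it first transcribes immediate early genes, cytokines and genes of growth, then copies its DNA and divides. Later in this course CD8 cells acquire genes of cytotoxic granules, effector cytokines and migration, and the 12 h to 24 h interval usually spans the entry into the first cell cycle.

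The libraries at 12 h go against their sex label. The 4 Y-linked genes Ddx3y, Eif2s3y, Kdm5d and Uty summed to 0 and 0 RPKM in the Zn4 24 h libraries, against 43.5 and 21 RPKM in the Zn4 12 h libraries. Xist, expressed from the inactive X chromosome of female cells, had 70.0 and 61.0 RPKM at 24 h, against 0.0258 and 24.3 RPKM at 12 h. Zn4 12 h replicate 2 thus held both Xist and Y-linked transcripts. The time of stimulation and the sex of the cells therefore cannot be told apart among these 4 libraries. Of the WT libraries only replicate 1 of 12 h held Y-linked transcripts, at 38.9 RPKM, so WT 12 h replicate 2 (0.00198 RPKM) gives a 12 h value from cells with almost none. Xist had 0.0023 RPKM in WT 12 h replicate 1 and 52.6 RPKM in replicate 2, so these 2 libraries held cells of different animals. A covariate for the summed Y-linked level was run for every result. Among the Zn4 libraries this level follows the time, so the slope rests mainly on the 2 WT 12 h libraries. A call can end through a wider error as well as a smaller change. With the covariate the median was 0.41 for p53 target and cell death genes (0.36 without), none of them called. For CDK inhibitor and G0 genes it was 0.34 (0.77 without). Neither a lost nor a kept call tests the part of sex. The covariate fit leaves 719 genes called higher and 128 lower in Zn4 cells, and the calls in Zn4 cells that it ended are named or counted beside each list. Of the 100 differences between genotypes called below, it left 6, those of Csf2, Socs2, Ifitm3, Derl3, S100a4 and Igfbp7.

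Genes that define CD8 T cells were abundant at both times. Cd3d, Cd3e, Cd3g, Cd8a and Cd8b1 summed to 677 and 826 RPKM at 24 h, against 794 and 814 RPKM at 12 h. Of the markers of other cells that the sort could hold, 5 of 16 B cell markers were in the table and summed to 125 and 189 RPKM at 24 h, against 86.6 and 84.2 RPKM at 12 h. These were Cd79b, Cd74, H2-Aa, H2-Ab1 and Ighm. Cd79b (log2 change 0.87 ± 0.17, SE) and Cd74 (0.88 ± 0.29) were called higher. Cd79b had 1.56 and 1.73 RPKM at 24 h, against 0.298 and 0.609 RPKM at 12 h. Cd74 had 25.7 and 25.1 RPKM, against 14.6 and 12.1 RPKM, so most of the sum came from the other members. The call of Cd79b ended with the Y-linked covariate and that of Cd74 in 12 of 17 alternatives. Myeloid (2 of 19 markers, 2.99 and 5.28 RPKM at 24 h, against 2.55 and 3.01 RPKM at 12 h), erythroid and platelet (1 of 11, 0.494 and 0.462, against 0.561 and 0.506) and stromal markers (3 of 13, 3.37 and 4.95, against 6.69 and 6.95) were low at both times. The 3 CD4 cell markers of 5 that were listed summed to 7.56 and 11.7 RPKM, against 2.78 and 4.32 RPKM, and 4 of 14 natural killer and innate T cell markers to 51.6 and 24.6 RPKM, against 37.5 and 48.9 RPKM. Of these markers Ctla4 (1.12 ± 0.36, adjusted p = 0.0403) and Cd40lg (0.82 ± 0.19) of the CD4 list were called higher, and the stromal markers Krt18 (-0.67 ± 0.17) and Epcam (-0.60 ± 0.14) lower, and the Y-linked covariate ended all of these calls. The call of Ctla4 also ended in 9 other alternatives, that of Cd40lg in a fit of only the libraries compared, and those of Krt18 and Epcam without Zn4 24 h replicate 1. The remaining markers of these lists are not analysed here. In bulk RNA, fewer cells of a type and less RNA per cell cannot be told apart, and the part of other cells in the results was not tested. Ikzf1 itself had 136 and 139 RPKM at 24 h, against 114 and 124 RPKM at 12 h, a change that was not called (0.21 ± 0.10, adjusted p = 0.158), and the sum over the gene does not tell the mutated transcript from a normal one.

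The 24 h libraries held 25601135 and 24986739 reads, the 12 h libraries 28125092 and 27532627, so that 3 reads over 2 kb of gene length equal 0.0449 to 0.0618 RPKM across the series. Replicates correlated across genes at r = 0.986 at 24 h and 0.993 at 12 h. Of all tested genes, 22.6% were called higher at 24 h (2875) and 11% lower (1398), 67.3% of the called genes being higher. That split depended on the scaling. With median-ratio scaling 2319 genes were called higher and 2067 lower, while 2007 were higher and 2379 lower after quantile normalization. The median log2 change over all genes was 0.05 as deposited, -0.03 with median-ratio scaling and -0.09 with quantile normalization. Quantile normalization thus shifted the median change by -0.14, and small changes of 1 gene are to be read against that shift. The 22.6% higher and 11% lower of all tested genes are the shares to set beside the counts of each list below.

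Of the lists described here, that of mitosis was the one in which every member was called higher at 24 h. All 45 genes of mitosis and G2/M rose, with a median log2 change of 3.02 against 0.05 over all tested genes, and 44 of the 45 rose at least 2-fold, as 7.46% of all tested genes did. Mki67, the proliferation antigen, had 51.4 and 66.1 RPKM in Zn4 cells at 24 h, against 0.198 and 0.699 RPKM at 12 h, which is 13253 and 16635 reads against 56 and 194. The groups lay far apart, and the change was 5.38 ± 0.18 (SE, adjusted p = 1.01e-06). Ccna2, the cyclin of S and G2 phase, had 28.7 and 43.3 RPKM, against 0.213 and 0.683 RPKM (4.67 ± 0.20). Top2a, which untangles replicated chromosomes, had 53.6 and 78.5 RPKM, against 1.45 and 2.35 RPKM (4.53 ± 0.19), and Cdk1, the kinase that drives entry into mitosis, 27.7 and 42.0 RPKM, against 0.537 and 1.43 RPKM (4.18 ± 0.24). The chromosomal passenger genes Aurkb (4.23 ± 0.21) and Birc5 (4.0 ± 0.17), the spindle protein gene Ckap2l (4.0 ± 0.22) and Foxm1, a transcription factor for mitotic genes (2.81 ± 0.16), rose with them. In each of these genes both 24 h libraries were above both 12 h libraries. Adding the Y-linked covariate left 44 mitosis genes called, and no library left out moved the count by more than 1.5 times. The processed pseudogenes Gm6091 and Gm15428, also among the 15 largest rises, are near copies of other genes, so their reads cannot be assigned with certainty.

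**Figure D1:**
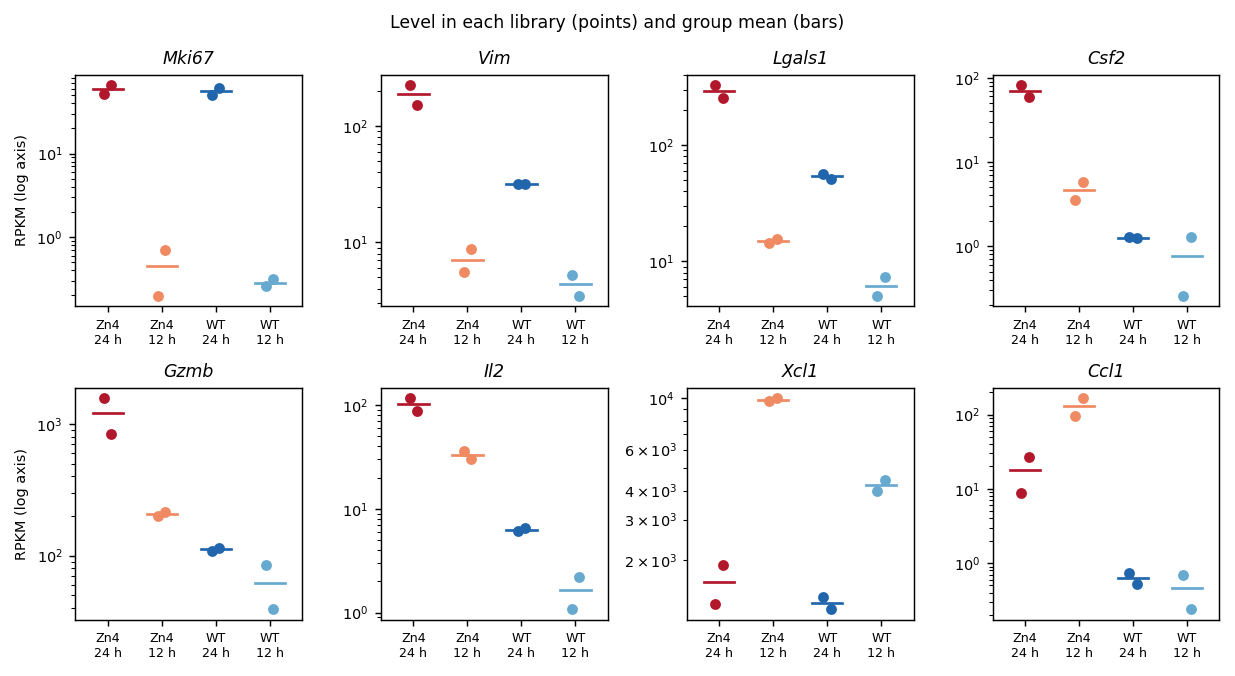
RPKM on a log axis of 8 genes in the 2 libraries of each group (points) with the mean (bar), in Zn4 cells at 24 h and 12 h and in WT cells at 24 h and 12 h. Mki67 was at 51.4 and 66.1 RPKM in Zn4 cells at 24 h, against 0.198 and 0.699 RPKM at 12 h, and at nearly the same levels in WT cells, while Csf2 and Ccl1 stood far apart between the genotypes.

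The promoters of mitotic genes are known for 2 short elements, the cell cycle genes homology region (CHR), which the DREAM complex binds, and CCAAT boxes, which NF-Y binds. The sequences below show them upstream of the 5 genes with the largest change on the mitosis list that had a RefSeq window, since these genes move together. CHR was searched as TTTGAA or TTTAAA and CCAAT as CCAAT, each on both strands (so also as TTCAAA and ATTGG), and no match overlapped another. Matches are in capitals. The windows lie outside the annotated gene, on GRCm38.p6, 5′ to 3′ on the gene's strand: Mki67 at chr7:135716451-135716629 (minus strand), Top2a at chr11:99024200-99024439 (minus), Cdk1 at chr10:69352913-69353162 (minus), Ckap2l at chr2:129297229-129297462 (minus) and Birc5 at chr11:117848987-117849236 (plus).
Mki67: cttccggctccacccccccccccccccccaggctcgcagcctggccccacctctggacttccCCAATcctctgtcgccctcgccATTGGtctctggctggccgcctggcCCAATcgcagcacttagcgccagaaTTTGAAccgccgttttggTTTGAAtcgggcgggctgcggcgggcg
Top2a: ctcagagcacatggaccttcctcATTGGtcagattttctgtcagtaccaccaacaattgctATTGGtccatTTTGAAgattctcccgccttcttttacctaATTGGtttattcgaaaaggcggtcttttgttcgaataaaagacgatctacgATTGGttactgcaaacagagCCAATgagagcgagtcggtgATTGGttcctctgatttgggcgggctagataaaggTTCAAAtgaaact
Cdk1: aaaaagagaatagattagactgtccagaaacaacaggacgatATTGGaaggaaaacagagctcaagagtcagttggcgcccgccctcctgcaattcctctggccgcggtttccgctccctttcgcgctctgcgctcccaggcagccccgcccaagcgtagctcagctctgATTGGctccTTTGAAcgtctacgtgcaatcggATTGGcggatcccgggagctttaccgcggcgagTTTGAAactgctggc
Ckap2l: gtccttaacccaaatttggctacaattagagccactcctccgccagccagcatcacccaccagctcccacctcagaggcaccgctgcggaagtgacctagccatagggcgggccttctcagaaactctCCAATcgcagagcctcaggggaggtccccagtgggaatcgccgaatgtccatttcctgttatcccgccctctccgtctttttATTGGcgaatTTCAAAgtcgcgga
Birc5: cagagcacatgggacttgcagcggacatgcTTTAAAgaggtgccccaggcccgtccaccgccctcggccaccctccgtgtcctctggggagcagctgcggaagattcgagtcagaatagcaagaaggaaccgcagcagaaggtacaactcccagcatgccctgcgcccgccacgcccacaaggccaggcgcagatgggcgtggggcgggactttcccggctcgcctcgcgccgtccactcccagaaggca
The Mki67, Top2a and Cdk1 windows each held 2 CHR matches, with 3, 6 and 3 CCAAT matches, the Ckap2l window 1 and 2, and the Birc5 window 1 CHR match and no CCAAT match. Over the 37 of 45 mitosis genes with a RefSeq promoter, 51.3% of 39 windows of 250 bases held a CHR match and 74.4% a CCAAT match. Among 10246 windows of tested genes the shares were 17.2% and 35.5%, and among all 32851 promoters 25.2% and 33.8%. For the 34 of 40 replication genes with a promoter (40 windows) they were 20.0% and 57.5%. A match is a description of these letters and not a site of binding.

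Genes of DNA replication and G1/S rose in 38 of 40 cases, with a median of 1.59, and none fell. The largest change was that of Rrm2, the ribonucleotide reductase subunit that supplies deoxynucleotides, with 87.2 and 125 RPKM at 24 h, against 1.46 and 3.45 RPKM at 12 h (4.99 ± 0.30). E2f2, a transcription factor of S-phase entry (3.58 ± 0.13), Cdc6, which loads the replicative helicase (3.39 ± 0.20), Lig1, the ligase that joins Okazaki fragments (3.16 ± 0.19), and Ccne1, cyclin E1 (2.60 ± 0.24), followed. Of the 2 members not called, Mcm2, a helicase subunit, had 108 and 132 RPKM at 24 h, against 109 and 116 RPKM at 12 h, groups that overlap (0.09 ± 0.11, adjusted p = 0.568), and its sign turned with median-ratio scaling and without Zn4 24 h replicate 2. Cdt1, a loading factor of the helicase, was the other (0.57 ± 0.20, adjusted p = 0.0522). Pcna, the sliding clamp, had 60.6 and 79.0 RPKM, against 41.3 and 43.3 RPKM (0.70 ± 0.16), and its call ended with the Y-linked covariate and without Zn4 12 h replicate 1 or Zn4 24 h replicate 2. The Y-linked covariate left 31 of the 38 calls.

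Both lists rose in WT cells too. Mki67 had 50.5 and 61.7 RPKM in WT cells at 24 h, against 0.257 and 0.312 RPKM at 12 h, the last value from the library without Y-linked transcripts. Of the mitosis list 44 rose in WT cells (median 2.93), and of the replication list 39 (median 1.82), beside 17% of all genes called higher and 6.94% lower. In the test of the difference between the genotypes, which called 0.652% of all genes with a change that was higher in the mutant and 0.134% with one that was lower, no gene of either list was called. A p above the threshold does not show that changes were equal, and for Mki67 the difference was -0.09 ± 0.25.

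Of 18 tested CDK inhibitor and G0 genes 11 rose, 1 fell and 6 were not called, with a median of 0.77. In WT cells 7 of them rose and 1 fell, with a median of 0.145. Cdkn2d (p19INK4d) had 20.0 and 21 RPKM, against 3.92 and 4.74 RPKM (2.02 ± 0.21), and Cdkn2c (p18INK4c) 3.65 and 5.32 RPKM, against 0.649 and 0.554 RPKM (1.76 ± 0.17), both inhibitors of the cyclin D kinases. In resting Zn4 cells Cdkn2d had 62.3 and 40.3 RPKM, above its 24 h level, and Cdkn2c 1.11 and 1.12 RPKM, below it. Cdkn1a (p21), a p53 target, had 204 and 139 RPKM, against 48.5 and 51.6 RPKM (1.73 ± 0.34), a call that ended with the Y-linked covariate. Ccnd3, a cyclin D that drives the cycle and is also on the list, rose by 1.44 ± 0.12. With that covariate 4 of the 11 calls were left. Of 28 p53 target and cell death genes 12 rose and 5 fell (median 0.36), none of them called with that covariate and 6 higher and 3 lower without Zn4 12 h replicate 1.

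Another list with a large median change was that of intermediate filament, lamina, annexin, galectin and S100 genes, which build the cytoskeleton and nuclear envelope or bind calcium, membranes or sugars. Of 24 tested members 21 rose and 20 rose at least 2-fold, with a median of 2.18, and none fell. The list was chosen with earlier results of these data known, so these counts describe it and do not test it. It also holds genes outside the families named, such as Emp3. Vim, the intermediate filament vimentin, had 225 and 150 RPKM in Zn4 cells at 24 h, against 5.54 and 8.70 RPKM at 12 h (4.54 ± 0.25, adjusted p = 3.41e-06). Resting Zn4 cells had 146 and 166 RPKM, so the 12 h libraries were the low point of the course. WT cells had 31.6 and 31.8 RPKM at 24 h, against 5.29 and 3.48 RPKM at 12 h. The genotypes thus stood close together at 12 h and apart at 24 h, and the difference in change was called (1.91 ± 0.35, adjusted p = 0.046).

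Lmna, which encodes lamins A and C of the nuclear envelope, had 60.0 and 17.2 RPKM in Zn4 cells at 24 h, against 0.242 and 0.470 RPKM at 12 h (4.62 ± 0.48, adjusted p = 0.000109). Its 24 h replicates lay well apart from each other, yet both were far above 12 h. Resting Zn4 cells had 10.3 and 17.8 RPKM, and WT cells 0.300 and 0.299 RPKM at 24 h, against 0.0581 and 0.134 RPKM at 12 h. The difference between genotypes was 4.38 ± 0.68 (adjusted p = 0.0343). Anxa2, a membrane-binding annexin, had 96.1 and 29.9 RPKM in Zn4 cells at 24 h, against 1.60 and 2.29 RPKM at 12 h (4.23 ± 0.42), and 4.74 and 5.05 RPKM in WT cells at 24 h, against 2.46 and 2.46 RPKM at 12 h. Here the mutant 24 h libraries stood above every other library shown (difference 3.46 ± 0.59, adjusted p = 0.0389).

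Lgals1, galectin-1, had 329 and 257 RPKM at 24 h, against 14.4 and 15.7 RPKM at 12 h (4.19 ± 0.16), with 100 and 96.2 RPKM in resting Zn4 cells. WT cells rose as well, to 57.0 and 51.5 RPKM at 24 h, against 5.04 and 7.26 RPKM at 12 h, and the difference was 1.22 ± 0.23 (adjusted p = 0.0472). Smaller members also moved. S100a4, a calcium-binding protein known from motile and memory cells, had 65 and 78 reads at 24 h, against 0 and 3 at 12 h (2.41 ± 0.14), and 0.351 and 0.180 RPKM in WT cells at 24 h, against 0 and 0.051 RPKM at 12 h (difference 2.11 ± 0.19, adjusted p = 0.00595). S100a13 (2.84 ± 0.15 in Zn4 cells, 1.24 ± 0.15 in WT cells) and the membrane protein gene Emp3 (2.50 ± 0.19 and 0.92 ± 0.19) were also called in the difference (1.60 ± 0.21 and 1.58 ± 0.27, adjusted p = 0.0275 and 0.0389). Crip1 (2.88 ± 0.25), Tagln2 (2.4 ± 0.23) and S100a10, the partner of Anxa2 (1.82 ± 0.18), rose in Zn4 cells with differences that were not called. At 24 h Crip1 had 118 and 76.4 RPKM, below the 304 and 393 RPKM of resting Zn4 cells. S100a13 had a mean of 20.2 RPKM at 24 h and 23.7 RPKM at rest. Emp3 had 102 and 65.5 RPKM at 24 h, against 67.4 and 64.8 RPKM at rest. Tagln2 (mean 326 RPKM at 24 h, 124 RPKM at rest) and S100a10 (134 and 65.9 RPKM) were above rest.

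In WT cells 10 of these 24 genes rose, with a median of 0.45. In the difference 7 were called higher in the mutant and none lower, and these calls were not stable. With a pseudocount of 0.1 none of the 7 was called, and with the Y-linked covariate S100a4 alone. Of 17 alternatives each, 13 ended the call of Vim, 12 those of Lgals1, Anxa2 and Emp3, 11 that of Lmna and 7 that of S100a13, and of 16 alternatives 3 ended that of S100a4. The differences of these genes had the same sign in every alternative run. For S100a4 the difference was 3.32 with a pseudocount of 0.1. Not every member followed: Lgals7 had 33.7 and 34.7 RPKM in Zn4 cells at 24 h, against 33.3 and 30.1 RPKM at 12 h (0.11 ± 0.22, adjusted p = 0.747). The 21 calls in Zn4 cells were 15 with the Y-linked covariate.

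**Figure D2:**
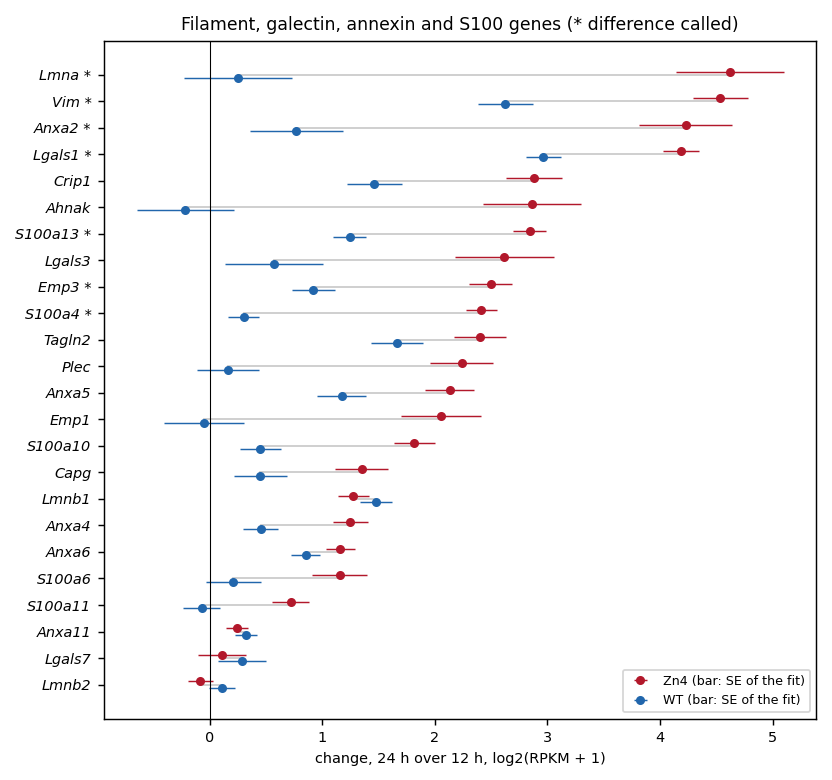
Log2 change from 12 h to 24 h (x axis, with its standard error) of the 24 tested members of the filament, lamina, annexin, galectin and S100 list in Zn4 cells and in WT cells. An asterisk marks the 7 genes whose difference between genotypes was called. The changes reached 4.62 in Zn4 cells (Lmna), where WT cells had 0.25, and Lgals7 was near 0 in both.

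Secreted factors were split between rises and falls. Of 19 tested cytokine and growth factor genes 11 rose and 3 fell, with a median of 0.75. Csf2, which encodes GM-CSF, had 81.9 and 58.6 RPKM in Zn4 cells at 24 h, against 3.51 and 5.77 RPKM at 12 h (3.67 ± 0.28, adjusted p = 1.94e-05). It was at 0 RPKM in both resting Zn4 libraries, and at 1.29 and 1.23 RPKM in WT cells at 24 h, against 0.257 and 1.27 RPKM at 12 h. The mutant libraries of 24 h stood above all the others, and the difference between genotypes was 3.25 ± 0.40 (adjusted p = 0.0244). Its neighbour Il3 lies on the same chromosome (Csf2 at chr11:54247270-54249899, Il3 at chr11:54265085-54267279, GRCm38.p6) and was already high at 12 h in the mutant. Il3 had 283 and 240 RPKM at 24 h, against 135 and 212 RPKM at 12 h (0.62 ± 0.20, adjusted p = 0.0384), a call that ended in 9 of the alternatives, the Y-linked covariate among them, while WT cells had at most 1.11 RPKM.

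Il2, the growth factor of T cells, had 116 and 88.6 RPKM, against 35.9 and 30.3 RPKM (1.59 ± 0.20, adjusted p = 0.000331), and in WT cells 6.05 and 6.54 RPKM, against 1.08 and 2.20 RPKM. The mutant's levels of Il2 were far higher at both times, while the log2 change in WT cells was 1.5. Lif (2.31 ± 0.24) and Osm (1.80 ± 0.20), cytokines of the interleukin-6 family, Pdgfb, a growth factor of mesenchymal cells (2.23 ± 0.25), and Penk, the precursor of enkephalins (2.04 ± 0.22), also rose, and Penk and Osm were called in the difference (1.94 ± 0.32 and 1.60 ± 0.28). Tnf had 82.4 and 97.3 RPKM, against 45.7 and 43.7 RPKM, without a call (adjusted p = 0.0577). Ifng, the effector cytokine interferon-gamma, went the other way, with 224 and 278 RPKM in Zn4 cells at 24 h, against 375 and 570 RPKM at 12 h (-0.89 ± 0.20, adjusted p = 0.00754). In WT cells Ifng was higher at 24 h, at 18.7 and 18.5 RPKM, against 13.4 and 9.70 RPKM at 12 h, and the difference was -1.55 ± 0.28 (adjusted p = 0.046). The mutant's fall lost its call with the Y-linked covariate and in the fits that left out Zn4 12 h replicate 2 or Zn4 24 h replicate 1. With the covariate 6 cytokine genes were called higher and none lower, and without Zn4 12 h replicate 1, 7 were higher.

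Among 8 tested chemokine ligand genes 2 rose and 2 fell, beside 22.6% higher and 11% lower of all tested genes. Ccl1, a ligand of CCR8, had 8.80 and 26.9 RPKM in Zn4 cells at 24 h, against 94.3 and 165 RPKM at 12 h (-2.93 ± 0.42, adjusted p = 0.000741). Both 24 h libraries were below both 12 h libraries, and WT cells stayed under 1 RPKM at both times. The difference between genotypes for Ccl1 was -3.09 ± 0.59 and was not called (adjusted p = 0.0553). Xcl1, lymphotactin, was the most abundant of them, with 1298 and 1918 RPKM at 24 h, against 9674 and 9962 RPKM at 12 h (-2.64 ± 0.18, and -1.03 with quantile normalization), and 1394 and 1235 RPKM in WT cells at 24 h, against 3995 and 4436 RPKM at 12 h. At 24 h the genotypes were thus near each other again. Ccl5, RANTES, had 10.7 and 10.3 RPKM, against 0.852 and 2.46 RPKM (2.18 ± 0.34), and Ccl22, a ligand of CCR4, 3.28 and 1.02 RPKM, against no reads at 12 h, where 3 reads in each library set the mean at least 45.8-fold higher. The calls of Ccl1, Ccl5 and Ccl22 ended with the Y-linked covariate, and that of Xcl1 did not.

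Receptors for homing changed in both directions, while of the called cytokine receptor genes all but 1 rose. Of 22 chemokine, homing and egress receptors 7 rose and 5 fell (median 0.45), beside 22.6% higher and 11% lower of all tested genes. Cd44, the hyaluronan receptor by which activated and naive cells are told apart, had 69.2 and 47.8 RPKM in Zn4 cells at 24 h, against 9.16 and 8.96 RPKM at 12 h (2.54 ± 0.20, adjusted p = 2.29e-05). In WT cells Cd44 had 19.2 and 18.2 RPKM, against 10.4 and 14.8 RPKM, and the difference was 1.99 ± 0.28 (adjusted p = 0.0279). The labels define the sort by low CD44, and resting Zn4 cells had 0.535 and 0.990 RPKM. Ccr4, a chemokine receptor of skin-homing T cells, rose by 2.85 ± 0.17. Cxcr6 (-1.49 ± 0.22), Cxcr3 (-1.13 ± 0.24) and Ccr9, the gut-homing receptor (-1.13 ± 0.17), fell. Of these falls that of Ccr9 was called with the Y-linked covariate too. The covariate left 2 receptors higher and 1 lower, and the number lower was 3 without Zn4 12 h replicate 1, Zn4 12 h replicate 2 or Zn4 24 h replicate 1.

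Of 26 cytokine receptor genes 11 rose and 1 fell (median 0.39), with 4 rises left by the Y-linked covariate and 7 without Zn4 12 h replicate 1. Il12rb2, the signalling chain of the interleukin-12 receptor, had 43.6 and 14.3 RPKM, against 2.95 and 4.29 RPKM (2.51 ± 0.39). Il10ra, a chain of the interleukin-10 receptor, had 9.29 and 6.5 RPKM in Zn4 cells at 24 h, against 1.38 and 2.52 RPKM at 12 h, and 2.09 and 1.63 RPKM in WT cells at 24 h, against 1.80 and 1.72 RPKM at 12 h (difference 1.55 ± 0.29, adjusted p = 0.0472). In resting Zn4 cells Il10ra had 7.31 and 6.85 RPKM. Il2ra, CD25, was abundant throughout, at 214 and 174 RPKM, against 146 and 148 RPKM, with no call (0.39 ± 0.17, adjusted p = 0.114). STAT5 is a transcription factor downstream of interleukin-2. In the list of STAT5 feedback and PIM kinase genes, which also holds Lif, Osm and Ccnd3 named above, 10 of 18 rose and none fell (median 0.42). Socs2, a suppressor of cytokine signalling, had 3.77 and 4.77 RPKM in Zn4 cells at 24 h, against 0.205 and 0.293 RPKM at 12 h (2.07 ± 0.12), and 0.424 and 0.392 RPKM in WT cells at 24 h, against 0.0605 and 0.0691 RPKM at 12 h. The difference for Socs2 was 1.67 ± 0.16 (adjusted p = 0.00761). Socs1 (1.00 ± 0.15) and Cish (0.89 ± 0.17) rose too, and the covariate left 6 of the 10.

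Of 20 granzyme, perforin and granule genes 5 rose and 2 fell, with a median of 0.14, shares near the 22.6% and 11% of all tested genes. The covariate left 4 rises and no fall. Gzmb, granzyme B, had 1561 and 836 RPKM in Zn4 cells at 24 h, against 199 and 214 RPKM at 12 h (2.46 ± 0.36, adjusted p = 0.00084), and 109 and 114 RPKM in WT cells at 24 h, against 84.6 and 39.2 RPKM at 12 h. The difference for Gzmb was 1.53 ± 0.51 and was not called. Ctsd, the lysosomal protease cathepsin D (1.5 ± 0.14), and Unc13d, which primes granules for release (1.29 ± 0.12), rose, and Unc13d was called in the difference (0.94 ± 0.16, adjusted p = 0.0423). At 24 h Unc13d had 17.1 and 15.9 RPKM, near the 17.4 and 14.8 RPKM of resting Zn4 cells. Ctsd had 59.2 and 58.9 RPKM at 24 h, below the 101 and 102 RPKM at rest. Gzmb had 1.72 and 0.993 RPKM at rest. Prf1, perforin, had 39.7 and 59.7 RPKM, against 105 and 112 RPKM (-1.14 ± 0.34, adjusted p = 0.0287). This fall was not called with the Y-linked covariate or without any of Zn4 12 h replicate 1, Zn4 12 h replicate 2 and Zn4 24 h replicate 1.

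Of 28 effector and activation transcription factors 9 rose and 3 fell (median 0.41), beside 22.6% higher and 11% lower of all tested genes. The number lower was near its share. Batf3, a partner of Jun proteins, had 18.2 and 13.8 RPKM in Zn4 cells at 24 h, against 0.400 and 1.63 RPKM at 12 h (3.14 ± 0.25, adjusted p = 2.34e-05). WT cells had 0.521 and 0.694 RPKM at 24 h, against 0 and 0.0421 RPKM at 12 h, and the difference was 2.48 ± 0.35 (adjusted p = 0.0276). The size of this difference depended on the pseudocount and the model: it was 1.54 with a pseudocount of 0.1 and 0.37 with limma-voom on the reads, neither of them called (adjusted p = 0.481 and 0.947, in a range over the alternatives of 0.00949 to 0.947). Of 17 alternatives 9 ended the call. Runx3, a factor of the CD8 lineage, rose by 1.01 ± 0.13, and Tbx21, T-bet, by 1.60 ± 0.37. The Tbx21 call ended with the Y-linked covariate and without Zn4 12 h replicate 1 or Zn4 24 h replicate 2. In the Ikaros family Ikzf3 (Aiolos) fell, with 16.1 and 19.9 RPKM, against 45.2 and 38.8 RPKM (-1.18 ± 0.17), and it fell in WT cells by 1.32. Ikzf4 rose by 0.61 ± 0.14, a call that also ended with quantile normalization and without Zn4 12 h replicate 1 or Zn4 24 h replicate 1, and Ikzf2 (0.39 ± 0.28) was not called, with a sign that turned without Zn4 24 h replicate 1. With the covariate, which also ended the calls of Ikzf3 and Ikzf4, 3 factors were higher and 1 lower, and 4 were higher without Zn4 12 h replicate 1. The immediate early and NFAT-responsive list had 7 higher and 7 lower of 34 (median 0.11), the number higher near the 22.6% of all tested genes. The falls reached -0.87 (Fosl1, an AP-1 gene), and in WT cells none rose and 7 fell. The AP-1 genes Fos (1.80 ± 0.39), Fosb (1.85 ± 0.42) and Junb (1.33 ± 0.21) rose, with none of the 7 rises left by the covariate and 3 without Zn4 12 h replicate 1. Without Zn4 24 h replicate 1 the changes of Fos and Fosb were 1.18 and 1.10. In resting Zn4 cells Fosb had 69.2 and 93.6 RPKM, above its 26.5 and 8.80 RPKM at 24 h. Fos had 19.9 and 26.1 RPKM at rest and 23.1 and 9.29 RPKM at 24 h. Junb had 170 and 205 RPKM at rest and 268 and 192 RPKM at 24 h.

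Costimulatory and inhibitory receptors were divided. Of 24 TNF superfamily genes 11 rose and 6 fell (median 0.65), beside 22.6% higher and 11% lower of all tested genes. Cd70, the ligand of CD27, had 20.1 and 6.32 RPKM, against 1.44 and 1.42 RPKM (2.35 ± 0.37), while Cd27 itself had 56.9 and 60.2 RPKM, against 121 and 119 RPKM (-1.03 ± 0.08). Tnfrsf4, OX40, had 155 and 111 RPKM, against 27.4 and 42.9 RPKM (1.90 ± 0.30), while Tnfrsf9, 4-1BB, had 249 and 188 RPKM, against 434 and 413 RPKM (-0.97 ± 0.24). Tnfsf14, LIGHT, fell by 1.44 ± 0.18. With the covariate 1 of the 11 rises and 3 of the 6 falls were called, Cd27 and Tnfsf14 among the falls but not Cd70, Tnfrsf4 or Tnfrsf9, and 7 rises were called without Zn4 12 h replicate 1. Of 16 inhibitory receptors 5 rose and 5 fell (median 0.19), beside those same shares. Cd200 rose by 1.47 ± 0.11, and Cd160, which had 14.0 and 18.8 RPKM, against 69.3 and 58.6 RPKM (-1.91 ± 0.17), and Klrd1, CD94 (-1.02 ± 0.08), fell. The covariate left 2 rises and 3 falls of this list. Of 28 naive-state genes 11 rose and 3 fell (median 0.36), the number lower near the 11% of all tested genes. Among the rises were Dapl1 with 53.8 and 65.8 RPKM, against 13.7 and 11 RPKM (2.19 ± 0.21), and Lef1 (0.92 ± 0.13, not called with the covariate). Resting Zn4 cells had 65.6 and 50.6 RPKM of Dapl1. They had 88.4 and 74.8 RPKM of Lef1, above its 13.8 and 13.4 RPKM at 24 h. Klf2, a factor that maintains quiescence and egress receptors, had 20.4 and 11.2 RPKM in Zn4 cells at 24 h, against 7.66 and 12.2 RPKM at 12 h, groups that overlap (0.59 ± 0.26, adjusted p = 0.111). In WT cells Klf2 fell, to 6.98 and 5.41 RPKM at 24 h, against 19.8 and 22.0 RPKM at 12 h, and the difference between the genotypes was 2.21 ± 0.37 (adjusted p = 0.0389). The naive list had 2 rises with the covariate, 6 with either of the Zn4 12 h libraries left out and 7 with Zn4 24 h replicate 1 left out.

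**Figure D3:**
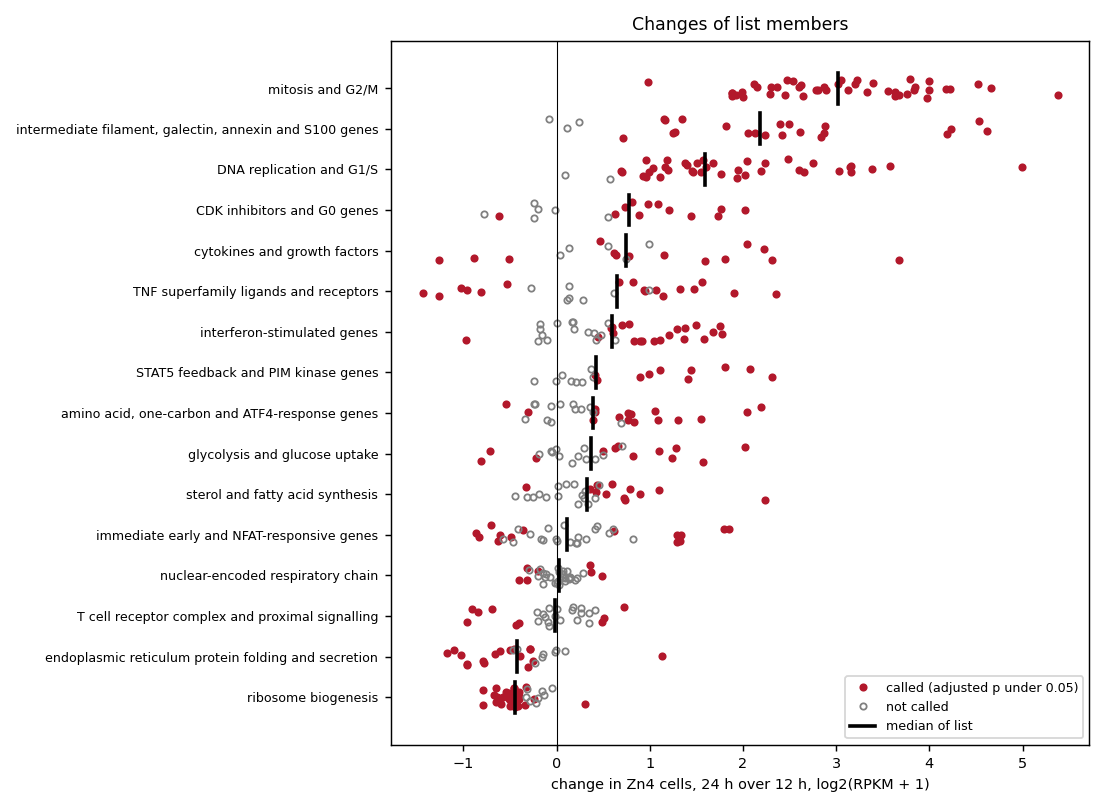
Log2 change from 12 h to 24 h in Zn4 cells (x axis) of each member of 16 gene lists (rows), with called and not called members marked apart and a line at each list's median. The mitosis list lies to the right of 0 with a median of 3.02, the filament list at 2.18, and the ribosome biogenesis and endoplasmic reticulum lists left of 0 at -0.45 and -0.43.

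Genes that build ribosomes were lower at 24 h. Of 40 ribosome biogenesis genes 31 fell and 1 rose, with a median of -0.45. Fbl, the methyltransferase fibrillarin, had 25.2 and 27.5 RPKM, against 50.4 and 42.1 RPKM (-0.79 ± 0.12, adjusted p = 0.000878). Polr1b, a subunit of RNA polymerase I, had 32.7 and 35.3 RPKM, against 54.6 and 53.5 RPKM (-0.65 ± 0.08), and the nucleolar genes Ncl (-0.48 ± 0.11) and Npm1 (-0.33 ± 0.08) were lower by less. In resting Zn4 cells Fbl had 9.98 and 10.5 RPKM, so the 24 h level remained above rest. In WT cells 17 of the 40 fell (median -0.32). The count is fragile to the libraries: none of the 31 falls was called with the Y-linked covariate, where the median was -0.34, and 15, 19 and 17 falls were called without Zn4 12 h replicate 1, Zn4 12 h replicate 2 and Zn4 24 h replicate 1.

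Protein folding genes of the endoplasmic reticulum were also lower, in 16 of 25 cases with 1 rise (median -0.43). Hspa5, the chaperone BiP, had 232 and 246 RPKM, against 538 and 488 RPKM (-1.10 ± 0.11, adjusted p = 7.16e-05), and Hyou1, a co-chaperone of BiP, 42.3 and 47.8 RPKM, against 106 and 99.6 RPKM (-1.17 ± 0.16). The disulphide isomerase gene Pdia6 (-0.96 ± 0.11) and Creld2 (-1.03 ± 0.11) fell as well. Edem1, which sends misfolded glycoproteins to degradation, was the 1 member that rose, with 59.6 and 44.1 RPKM, against 22.5 and 23.3 RPKM (1.13 ± 0.13). In WT cells 3 members fell and 2 rose (median -0.15), and none was called in the difference. The covariate left 5 of the 16 falls, and 10 were called without Zn4 12 h replicate 1. Derl3, a gene of endoplasmic reticulum-associated degradation that was not on the list, had 0.614 and 0.749 RPKM in Zn4 cells at 24 h, against 4.36 and 4.87 RPKM at 12 h (-1.74 ± 0.13), and 2.07 and 1.88 RPKM in WT cells at 24 h, against 0.863 and 1.10 RPKM at 12 h. Its opposite changes gave a difference of -2.33 ± 0.18 (adjusted p = 0.00348), the lowest p of that comparison, and -3.54 with a pseudocount of 0.1, where it was not called (adjusted p = 0.0642).

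Metabolic lists moved in part. Of 24 glycolysis genes 9 rose and 3 fell (median 0.37), and 13 and 2 did so in WT cells. The shares of all tested genes were 22.6% higher and 11% lower in Zn4 cells, and 17% and 6.94% in WT cells. Eno3, an enolase, had 85.3 and 70.0 RPKM in Zn4 cells at 24 h, against 16.7 and 19.8 RPKM at 12 h (2.03 ± 0.16), and 29.1 and 28.7 RPKM in WT cells at 24 h, against 18.5 and 16.1 RPKM at 12 h (difference 1.32 ± 0.22, adjusted p = 0.0389). Tpi1 (1.57 ± 0.17), Hk1 (1.28 ± 0.09) and Eno1 (1.10 ± 0.09) rose, and Gapdh (-0.71 ± 0.10), whose many copies make its reads uncertain, fell unless the covariate was added, which left 5 rises and no fall. Sterol and fatty acid synthesis genes rose in 11 of 28 cases and 1 fell (median 0.33), led by Scd2, a desaturase, with 14.2 and 13.3 RPKM, against 1.69 and 2.64 RPKM (2.24 ± 0.21). The covariate left 1 of these rises. Leaving out Zn4 12 h replicate 1 left 5, and leaving out Zn4 24 h replicate 2 left 7. Amino acid, one-carbon and ATF4-response genes rose in 14 of 29 cases and fell in 2 (median 0.39). Among them Cth, the cystathionine lyase that makes cysteine, had 12.6 and 18.8 RPKM, against 3.68 and 5.70 RPKM (1.55 ± 0.20). Here 3 rises were called with the covariate, and 8 and 9 when Zn4 12 h replicate 1 or replicate 2 was left out. Of 33 respiratory chain genes 3 rose and 4 fell, with a median of 0.02 that turned to -0.09 with median-ratio scaling, and none was called with the covariate. The number lower was near the 11% of all tested genes, and the number higher below the 22.6%.

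Interferon-stimulated genes rose in 20 of 36 cases and 1 fell (median 0.60; 10 rises and no fall in WT cells). Genes of antigen processing were among the rises. Psmb9, a subunit of the immunoproteasome, had 21.3 and 25.3 RPKM, against 5.16 and 7.38 RPKM (1.75 ± 0.18), and Psmb8, another subunit, rose by 1.49 ± 0.14. Tap1, the peptide transporter (1.37 ± 0.12), Irf1 (1.21 ± 0.14) and Igtp, an interferon-gamma-induced GTPase (1.58 ± 0.19), rose too. Each of these was higher in resting Zn4 cells than at 12 h. Irf1 had 132 and 102 RPKM at rest, above its 40.7 and 44.7 RPKM at 24 h. Igtp had 133 and 167 RPKM at rest and 111 and 139 RPKM at 24 h, and Tap1 72.9 and 60.5, then 74.5 and 72.7. Psmb9 had 22.5 and 17.7 RPKM at rest. Psmb8, with 47.6 and 45.8 RPKM at rest, had 67.2 and 73.4 RPKM at 24 h. The antiviral genes Rsad2 (0.01 ± 0.13) and Ifit1 (0.16 ± 0.28), known as targets of type I interferon, stayed under 1 RPKM at both times, with no call. The covariate left 7 of the 20 rises, and it ended the calls of Iigp1 and Gbp2. Ifitm3, an interferon-induced membrane protein gene not on the list, had 37.6 and 42.2 RPKM in Zn4 cells at 24 h, against 2.57 and 3.91 RPKM at 12 h (3.29 ± 0.20), and 1.22 and 0.729 RPKM in WT cells at 24 h, against 0.243 and 0.618 RPKM at 12 h (difference 2.82 ± 0.29, adjusted p = 0.00807).

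Of 27 genes of the T cell receptor and its proximal signalling 3 rose and 6 fell (median -0.01), beside 22.6% higher and 11% lower of all tested genes. Fyn, a Src-family kinase, fell by 0.85 ± 0.07, and Zap70, the kinase recruited by the phosphorylated receptor, had 75.0 and 93.8 RPKM, against 158 and 172 RPKM (-0.96 ± 0.13), a call that ended with the covariate. The covariate left 1 rise and 1 fall, and without Zn4 12 h replicate 1 no rise and 3 falls were called. Outside the lists the largest falls beside the Y-linked genes included Tef, a transcription factor of the PAR bZIP family, with 0.705 and 0.982 RPKM, against 7.97 and 6.70 RPKM (-2.18 ± 0.14). Pou2af1, a coactivator of octamer-binding factors best known from B cells, had 13.2 and 21.7 RPKM in Zn4 cells at 24 h, against 81.2 and 76.3 RPKM at 12 h (-2.15 ± 0.18), and 42.5 and 41.4 RPKM in WT cells at 24 h, against 53.8 and 55.8 RPKM at 12 h. Its difference was -1.77 ± 0.25 (adjusted p = 0.0276). Cited4, a cofactor of CBP and p300 (-2.24 ± 0.21), and Npw, the precursor of neuropeptide W (-1.78 ± 0.17), fell too.

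The test of the difference between genotypes asks which 12 h to 24 h changes in Zn4 cells were unlike those in WT cells. It called 100 genes, 83 with a change that was higher in the mutant and 17 with one that was lower. Beside the filament, cytokine and receptor genes above, Igfbp7, which binds insulin-like growth factors, had 7.15 and 9.17 RPKM in Zn4 cells at 24 h, against 0.0879 and 0.150 RPKM at 12 h (3.03 ± 0.13), and 0.883 and 1.22 RPKM in WT cells at 24 h, against 0 and 0.0494 RPKM at 12 h (difference 2.03 ± 0.19, adjusted p = 0.00595). That difference was 2.02 with a pseudocount of 0.1 and 0.995 with limma-voom on the reads, neither of them called (adjusted p = 0.14 and 0.757, in a range over the alternatives of 0.00178 to 0.757). Il1a, interleukin-1 alpha, had 4.87 and 13.4 RPKM, against 0.0901 and 0.350 RPKM in Zn4 cells, which is 246 and 660 reads against 5 and 19 (difference 2.61 ± 0.46, adjusted p = 0.0423). Treml2, a receptor of the TREM family, was at 7.19 and 9.79 RPKM, against 1.97 and 2.19 RPKM (1.61 ± 0.15), with a WT change of 0.14 (difference 1.47 ± 0.21, adjusted p = 0.0276). Resting Zn4 cells had 20.6 and 19.1 RPKM of Treml2. The number of calls was sensitive to the fit. With a pseudocount of 0.1 limma called 0 genes (1407 had an unadjusted p under 0.05, against 1505 as reported here), with the Y-linked covariate 7, and with 1 library left out between 1 (WT 12 h replicate 2) and 450 (Zn4 24 h replicate 2).

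**Figure D4:**
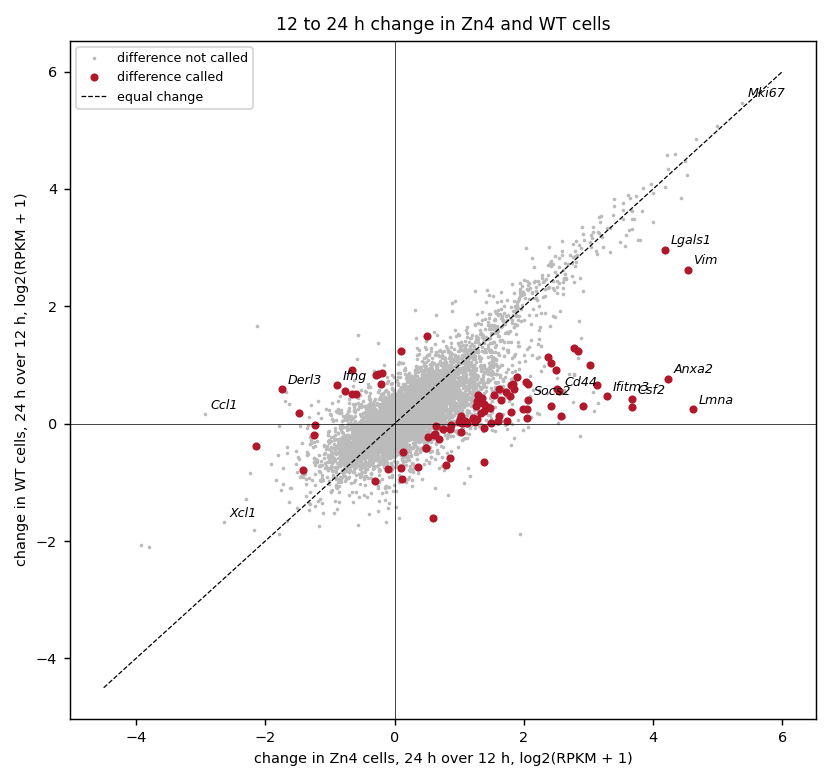
Log2 change from 12 h to 24 h of every tested gene in Zn4 cells (x axis) and in WT cells (y axis), with the 100 genes called in the difference in red. Mki67 lies near equal changes (5.38 in Zn4 cells and 5.47 in WT cells), while Lmna (4.62 in Zn4 cells and 0.25 in WT cells) and Csf2 (3.67 and 0.42) lie far below that line, toward the larger Zn4 change, and Derl3 (-1.74 and 0.59) lies above it.

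The 2 libraries of 24 h were not alike in these programs. Replicate 1 was below replicate 2 in all 45 mitosis genes (median log2 difference of -0.47) and in all 40 replication genes (-0.38), against a median of -0.03 over all tested genes. In the filament list replicate 1 was the higher in 18 of 24 genes (0.40), in the STAT5 list in 15 of 18 (0.29), and in the p53 list in 21 of 28 (0.22). Such a pair is Lmna at 60.0 and 17.2 RPKM and Mki67 at 51.4 and 66.1 RPKM, each in replicates 1 and 2 of 24 h. At 12 h replicate 1 was the higher in 4 of 45 mitosis genes (-0.17), 1 of 40 replication genes (-0.21) and 1 of 24 filament genes (-0.24). These are 2 libraries at each time, and the members of a list share each library, so the pattern is a description.

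**Figure D5:**
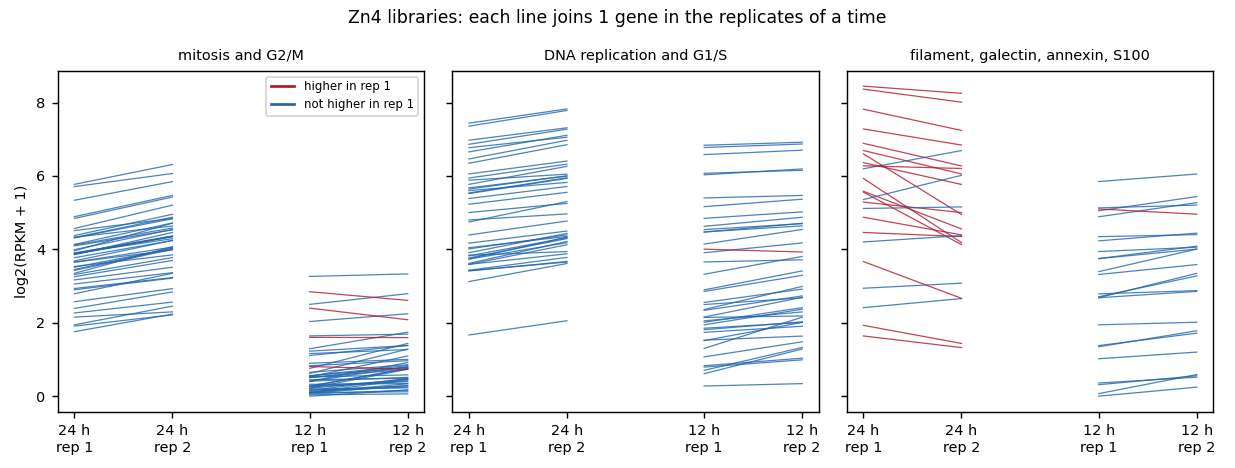
Log2(RPKM + 1) of each gene of the mitosis, replication and filament lists in the 2 replicates of Zn4 24 h and of Zn4 12 h, joined by a line per gene. At 24 h the lines of the mitosis and replication lists are all higher in replicate 2, while 18 of the 24 filament genes are higher in replicate 1.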

How the data were processed

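The deposited table holds RPKM values per gene, which the authors computed from single-end reads of TruSeq stranded mRNA libraries. Reads were processed with TopHat2 2.0.12 and HTSeq 0.6.1 on mm10 (GRCm38), per the submitters' processing notes. The table has 12892 lines and 12885 symbols, and no gene whose highest group mean is below 1.0005 RPKM. Of the 7 symbols with 2 lines, the upper line was used. Whole reads could be worked out from the steps of the values for 12885 genes (100% within 0.02 reads), which gave library totals of 24263907 to 33389810 reads.

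Values were analysed as log2(RPKM + 1), which understates the change of genes near or below 1 RPKM, for the 12726 genes that reached 1 RPKM in 2 or more libraries. One limma model (limma 3.58.1, R 4.3.3, mean-variance trend) of the 6 group means over all 12 libraries left 6 residual degrees of freedom. Benjamini-Hochberg adjustment was made within a comparison, and a gene was called under an adjusted p-value of 0.05. The comparisons were Zn4 24 h against 12 h, WT 24 h against 12 h, and their difference. Changes carry the model's standard error. The fit was tested on simulated data, with 50 genes changed at each size and 11389 genes in the fit. All groups were drawn from the mean levels of Zn4 12 h, with a replicate spread set beforehand. Shares are of the changed genes that passed the filter in the simulated data, which can be fewer than 50. It called 8.51% of those given a log2 change of 0.5, 69.2% at 1 and 100% at 2. At -1 it called 44.2%, so small changes, and falls more than rises, were often missed there. The real comparison called 4273 of 12726 genes, a far larger part than was changed in the simulation, so these shares do not give its power. Lists are described by counts and medians without a test of their own. Promoter sequences and gene coordinates are RefSeq's, on GRCm38.p6. Figures were drawn with matplotlib 3.10.9 in Python 3.11.15.

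The members and lists were chosen with earlier results of these data known. The genes named in the text are the 15 called genes that rose most and the 15 that fell most among those whose libraries did not overlap, the 4 largest called changes in each list, the 6 largest differences in each direction, the markers of the comparison, the Ikaros family and genes of T cell function. Ccne1, Pcna, Mcm2, Cdt1, Birc5, Foxm1, Crip1, S100a13, Emp3, S100a4, Tagln2, S100a10, Lgals7, Ncl, Npm1, Il3, Tnf, Fosl1, Tnfsf14, Cd27, Tnfrsf9, Cxcr3, Ccr9, Runx3, Psmb8, Tap1, Irf1, Rsad2, Ifit1, Gapdh, Eno1, Pdia6, Klrd1, Socs1, Cish, Il2ra, Klf2, Igfbp7 and Lef1 were added after their values were seen. Not all genes that the rule selects are described in the text. The alternatives tried were quantile and median-ratio scaling, the replicate number as a block, a covariate for the log2 summed level of the 4 Y-linked genes, limma-voom on the recovered reads, a pseudocount of 0.1, a filter of 5 RPKM or none, fits of only the libraries compared, a 2-fold minimum, and each stimulated library left out in turn.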

Additional observations from a re-analysis of the deposited data

Results flagged for a closer look

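Each result here was picked because the change from 12 h to 24 h in Zn4 cells differed from that in WT cells in the interaction test of the limma fit; the values are differences between the log2 changes, Zn4 minus WT, and groups of 2 libraries are too small to look for outlying samples. Among genes of the filament list, the difference was 4.38 for Lmna (adjusted p = 0.0343), 3.46 for Anxa2 (0.0389), 2.11 for S100a4 (0.00595), 1.91 for Vim (0.046), 1.60 for S100a13 (0.0275), 1.58 for Emp3 (0.0389) and 1.22 for Lgals1 (0.0472). Among secreted factors it was 3.25 for Csf2 (adjusted p = 0.0244), 2.61 for Il1a (0.0423), 1.94 for Penk (0.0377), 1.60 for Osm (0.0423) and -1.55 for Ifng (0.046). Ifng was lower at 24 h in Zn4 cells (-0.89) and higher in WT cells (0.66). Among receptors, adhesion and signalling genes it was 1.99 for Cd44 (adjusted p = 0.0279), 1.67 for Socs2 (0.00761), 1.55 for Il10ra (0.0472) and 1.47 for Treml2 (0.0276).

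The remaining genes with a higher change in the mutant were Ifitm3 (2.82, adjusted p = 0.00807), Batf3 (2.48, 0.0276), Klf2 (2.21, 0.0389), Igfbp7 (2.03, 0.00595), Eno3 (1.32, 0.0389) and Unc13d (0.94, 0.0423). For Klf2 the change in Zn4 cells was not called (0.59), and Klf2 was lower at 24 h in WT cells (-1.61). Genes with a lower change in the mutant were Derl3 (-2.33, adjusted p = 0.00348), Pou2af1 (-1.77, 0.0276), Ddn (-1.67, 0.0392), Lrmp (-1.57, 0.0358) and Gm12039 (-1.33, 0.0389), the last a processed pseudogene whose reads may belong to its parent gene. Derl3 and Lrmp were lower at 24 h in Zn4 cells (-1.74 and -0.66) and higher in WT cells (0.59 and 0.91). None of these 27 calls held in every alternative.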

How the results depend on the processing

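The 4273 calls of Zn4 24 h against 12 h numbered 847 with the Y-linked level as a covariate, 1073 at a minimum change of 2-fold, and 2424 to 3943 with 1 library left out, lowest without Zn4 12 h replicate 1. The other alternatives gave 3281 to 4386. With the covariate, 839 of the 4273 genes were still called and 4263 had the same sign. The 100 calls of the difference between genotypes numbered 0 with a pseudocount of 0.1 (lowest adjusted p 0.0642), 52 with quantile normalization, 49 with the replicate block, 7 with the Y-linked covariate, 43 with limma-voom on recovered reads, 10 in a fit of only the 8 libraries, and 1 to 450 with 1 library left out; the cause was not tested. Replicate numbers give no established pairing: the deviations of same-numbered libraries of 24 h and 12 h correlated at 0.0221 in Zn4 cells and 0.0391 in WT cells, and the replicate block gave 4330 calls in the main comparison. Of 156 genes selected by the rule or added that were called in Zn4 cells, 87 were called in every alternative run, 33 lost the call with the Y-linked covariate alone, and 35 lost it with some library left out. The covariate is made from Ddx3y, Eif2s3y, Kdm5d and Uty, so the loss of their own changes is built in and tests nothing. Signs turned, with the covariate, for Eif2s3y (0.17), RP24-540G19.3 (0.15), Kdm5d (0.39), Uty (0.12), Cd8a (0.20), Xist (-2.27), Lgals7 (-0.36), Tnf (-0.10) and Rsad2 (-0.067). They also turned for Mcm2 (-0.023) and Lgals7 (-0.004) with median-ratio scaling and for Ifit1 (-0.053) with quantile normalization. With 1 library left out the change ran from -0.005 to 0.78 for Ikzf2, from -0.053 to 0.233 for Mcm2 and from -0.01 to 0.026 for Rsad2, none of them called. With 2 libraries a group, where leaving one out leaves a lone library, the model takes it to vary like the other groups. Depth limits the low genes: S100a4 rests on 0 and 3 reads at 12 h.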
